A study of Mus musculus with 27 samples.

Results

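The 9 adipogenic transcription factors Pparg, Cebpa, Cebpb, Cebpd, Klf15, Ebf1, Ebf2, Rxra and Zfp423 were taken by name from a table of 43460 gene names, and all 9 were found there. They were followed in epididymal white fat, a visceral depot of the male mouse, from C57BL/6N animals carried through weight gain, loss and regain. The 27 RNA-seq libraries formed 9 groups of 3, and no group carried a transgene or a drug in the labels. The gain8 mice ate fat-rich food (60% of kcal from fat) for 8 weeks and were 13 weeks old. The loss mice had such a diet and then 4 weeks of normal diet, 12 weeks of treatment in all, and were 17 weeks old. The maintenance mice had 8 weeks of normal diet after the high-fat diet, 16 weeks in all, and were 21 weeks old. The gain4 mice, also 21 weeks old after a treatment period of 16 weeks, had 4 weeks of high-fat diet, and the labels do not give the diet of the weeks before. The regain mice were returned to high-fat diet for 4 weeks after the loss phase and were 21 weeks old, also after 16 weeks in all. The controls were control8, control12 and control16, kept on normal diet for 8, 12 and 16 weeks to ages of 13, 17 and 21 weeks, and the initial group of 5 weeks of age. The labels do not state that the 3 samples of a group came from separate mice. Each p-value therefore measures a spread between samples, pooled over all groups in the model, which are 9 unless stated otherwise.

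In cultured mouse preadipocytes, hormonal stimulation induces C/EBPB and C/EBPD first, and these switch on PPARG and C/EBPA, which then sustain each other and the genes of the mature fat cell. PPARG binds DNA together with the retinoid receptor RXRA, and the glucocorticoid-responsive factor KLF15 raises Pparg expression. EBF1 and EBF2 open sites that PPARG uses, EBF2 marking precursors of thermogenic fat cells in mice, while ZFP423 commits precursors to the fat lineage and holds back the thermogenic programme. In mature fat, C/EBPB and C/EBPD are also acute-phase factors that respond to cytokines and glucocorticoids.

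Because several of these factors act on one another's promoters, the bases just before 4 of the members' annotated starts are shown, from RefSeq on build GRCm38.p6, all on the plus strand. Promoter entries were matched by symbol for 7 of the 9 members with 12 start sites, and Cebpd and Ebf2 had none. Capitals mark matches, on either strand, to the C/EBP half-site pair TTGCNNAA, the box CCAAT, the GC box GGGCGG, the E-box CACGTG or the TATA sequence TATAAA, found by letters alone. The windows are chr6:115421816-115422065 (Pparg, the most downstream of its 3 starts), chr7:35119043-35119292 (Cebpa), chr2:167688665-167688914 (Cebpb) and chr6:90462326-90462575 (Klf15), each ending at the base before the start.
Pparg: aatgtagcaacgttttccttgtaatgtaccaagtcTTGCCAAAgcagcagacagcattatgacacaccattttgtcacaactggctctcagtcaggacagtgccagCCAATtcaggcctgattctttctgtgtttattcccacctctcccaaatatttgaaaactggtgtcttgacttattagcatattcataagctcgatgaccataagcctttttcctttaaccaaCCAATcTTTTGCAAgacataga
Cebpa: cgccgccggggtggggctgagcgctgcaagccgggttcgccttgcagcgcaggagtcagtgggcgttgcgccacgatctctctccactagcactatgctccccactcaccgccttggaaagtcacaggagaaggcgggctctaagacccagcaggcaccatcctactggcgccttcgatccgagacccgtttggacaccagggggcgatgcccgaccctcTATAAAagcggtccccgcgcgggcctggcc
Cebpb: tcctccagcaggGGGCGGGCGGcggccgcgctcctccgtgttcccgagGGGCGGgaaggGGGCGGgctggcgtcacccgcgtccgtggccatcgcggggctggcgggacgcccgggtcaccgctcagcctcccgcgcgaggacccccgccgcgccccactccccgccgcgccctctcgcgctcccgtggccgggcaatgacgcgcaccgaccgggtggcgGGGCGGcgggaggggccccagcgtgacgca
Klf15: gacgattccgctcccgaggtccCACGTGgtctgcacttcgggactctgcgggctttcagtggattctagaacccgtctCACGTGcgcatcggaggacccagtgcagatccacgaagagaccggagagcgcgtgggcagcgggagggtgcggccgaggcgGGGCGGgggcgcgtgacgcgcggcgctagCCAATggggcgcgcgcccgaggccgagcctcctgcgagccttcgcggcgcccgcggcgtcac

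The Pparg window held 2 C/EBP matches, TTGCCAAA from 215 to 208 and TTTTGCAA from 16 to 9 bases before the start, and 2 CCAAT boxes. Of 32851 promoter windows of the same length, 9.56% held a C/EBP match and 33.8% a CCAAT box. The other Pparg starts held no C/EBP match, and neither did the Cebpa, Cebpb, Klf15, Ebf1 and Rxra windows, while 1 of the Zfp423 windows held TTGCACAA. Cebpa had TATAAA from 30 to 25 bases before its start, a sequence present in 12.4% of windows. Cebpb held 5 GC boxes, of which 1 pair overlaps, and 32.7% of windows held at least 1. Klf15 held 2 E-boxes, against 6.02% of windows with any. The cyclic AMP element TGACGTCA (1.55% of windows), the EBF palindrome of TCCC and GGGA set 2 bases apart (0.779%) and the glucocorticoid receptor palindrome of AGAACA and TGTTCT set 3 bases apart (0.00913%) were not matched in any of the 12 windows. These matches describe letters in the windows and are not measured binding.

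Libraries held 26479773 to 32728594 counted reads. The 10 adipocyte markers, among them Adipoq, Plin1 and Fabp4, had reads in every group and summed to 8890.5 to 61568 CPM (library-scaled counts, with TMM factors), lowest in library 1 of loss. Some libraries stood apart in markers of other cells. Library 3 of maintenance carried 8439 CPM over 14 liver markers, against 8.35 to 138 CPM in the other 26 libraries. Library 1 of loss had a macrophage marker sum of 12676 CPM, against 4628 and 4505 CPM in the other loss libraries. Library 3 of control12 carried 131 CPM over 9 markers of epididymis and efferent duct, against 0.344 and 8.98 CPM in the other control12 libraries. The libraries also fell into a set of 15 with over 1000 CPM of Lars2, whose locus holds a sequence like ribosomal RNA, and a set of 12 below it. These sets cut across every group but initial, whose 3 libraries were all in the high set.

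Per kilobase of exon, the late factors were the most abundant members. Averaged over 27 libraries, Cebpa, which encodes the C/EBP of mature fat cells, stood at 243 on the scale of the deposited FPKM (fragments per kilobase, here scaled to the reads of protein-coding genes), with a range of 147 to 349.6. On the same per-length scale Pparg, the nuclear receptor at the head of the fat cell programme, averaged 96.9 (range 45.6 to 140.2). The lowest Cebpa library lay above the highest Pparg library. Cebpd, Rxra and Cebpb followed with mean levels per length of 44.9, 34.7 and 34.0, and their ranges over libraries overlapped widely (7.96 to 92.5, 21.0 to 51.2 and 20.4 to 55.0), so the order among these neighbours is not separated by their spread. The Cebpd level also rests on its deposited exonic length of 1180 bases, where the GENCODE annotation has 3746. The longer length would lower its level and its place. Likewise the Pparg level rests on a deposited length of 1984 bases, where GENCODE has 2953, and the longer length would lower that level. Klf15 averaged 19.6 (6.54 to 35.2) and Ebf1 14.2 (6.52 to 20.7) on this scale, overlapping ranges again. Zfp423 at 8.40 (3.61 to 13.8) and Ebf2 at 5.90 (2.36 to 12.0) had the lowest levels per length. Cebpd varied most, with its highest library at 11.6 times its lowest in level per length, and Cebpa least, at 2.38 times. The lowest raw count of any member in any library was 259 reads, for Cebpd, and all 9 members passed the filter on low counts.

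**Figure D1:**
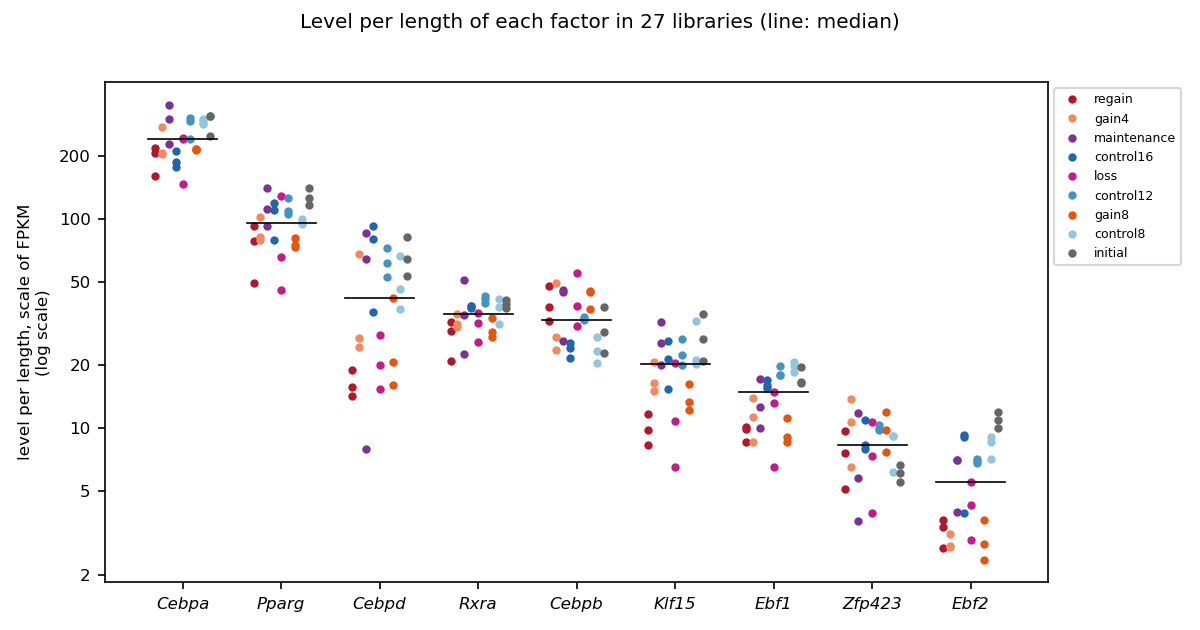
Level per length of each member in every library, on the scale of FPKM and a log axis; points are libraries coloured by group and the line is the median of 27. Cebpa lies highest and Ebf2 lowest, and the Cebpd points are the most spread, from 7.96 to 92.5.

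After 8 weeks of high-fat diet, Cebpb was higher and Ebf1 and Ebf2 were lower in gain8 than in control8, and the remaining members did not pass the test. In edgeR's quasi-likelihood test over 17821 gene names with Benjamini-Hochberg adjustment, 3 of 9 members were called at an adjusted p under 0.05, 1 higher and 2 lower. Of all tested names, 21.5% were called, 12.0% higher and 9.52% lower. These were 3833 names, and 2137 without gain8 library 2 or 2365 without gain8 library 3. The median log2 fold change was -0.37 over the members and -0.02 over all names. In this whole tissue, fewer cells of a type and less RNA per cell cannot be told apart. Of 12 macrophage markers, 9 rose, with sums of 4611 to 5184 CPM in gain8 against 1332 to 1813 CPM in control8 and none of the 12 at 0. Of 9 B cell markers 5 fell, with sums of 14.5 to 25.8 CPM in gain8 against 10.04 to 48.4 CPM in control8, and of 6 tested markers of epididymis and efferent duct 4 fell (0.247 to 0.355 CPM in gain8 against 19.8 to 88.2 CPM in control8). Of 10 adipocyte markers 1 rose and 2 fell, with sums of 28102 to 31628 CPM in gain8 against 30694 to 42287 CPM in control8. Of 7 mesothelium markers 1 fell (21.0 to 67.0 CPM in gain8 against 91.1 to 339.6 CPM in control8), of 14 liver markers 1 fell (9.31 to 48.3 CPM in gain8 against 83.9 to 138 CPM in control8), and of 9 thermogenic fat markers 1 rose and 1 fell. The mesothelium and liver sums did not overlap between the groups. The part of such cells in the members' values was not tested.

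In loss, on normal diet again for 4 weeks, Cebpd, Klf15, Ebf1 and Ebf2 were lower than in control12. The 4 called members were all lower, where 20.0% of all names were called, 11.8% higher and 8.24% lower. These 3564 names became 1196 without loss library 1 and 2373 without control12 library 3. The median log2 fold change was -0.61 over the members and -0.04 over all names. All 4 calls ended when library 1 of loss was left out, the library with the highest macrophage and lowest adipocyte sums. Of 12 macrophage markers, 9 rose and 1 fell, with sums of 4505 to 12676 CPM in loss against 1348 to 1764 CPM in control12 and none of the 12 at 0. Of 10 adipocyte markers 4 fell, with sums of 8890.5 to 32617 CPM in loss against 28859.9 to 50712 CPM in control12. Of 9 B cell markers 2 fell (14.5 to 17.2 CPM in loss against 8.28 to 62.6 CPM in control12). Of 7 mesothelium markers 1 fell (7.02 to 61.8 CPM in loss against 16.3 to 201 CPM in control12), and of 6 tested markers of epididymis and efferent duct 4 fell (0.245 to 0.331 CPM in loss against 0.344 to 131 CPM in control12). Their part in the result was not tested.

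After 8 weeks of normal diet, maintenance differed from control16 in no member by this test. The count of 0 among members stood beside 0 among all names (0.0%) with edgeR, where 3633 names had an unadjusted p under 0.05. With an unadjusted p under 0.05 there were 2 members, Cebpa and Cebpb, both higher. DESeq2 called 830 names and 1 member, Cebpa (0.75, adjusted p = 0.0239), and limma on the deposited FPKM called none of the 8 members in that table. Leaving out 1 library moved both counts: without maintenance library 2 the same edgeR test called 2251 names and 2 members, Cebpa and Cebpb, and without maintenance library 1 it called 524 names and 0 members. Macrophage sums were 775 to 2968 CPM in maintenance and 1806 to 2316 CPM in control16. The maintenance, gain4 and regain comparisons below share the control16 libraries, so their values are not independent of one another.

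In gain4 only Ebf2 was called, lower than in control16, where 5.82% of all names were called, 3.8% higher and 2.02% lower. That share rests on single libraries: 1037 names were called with all of them, 2 without control16 library 1, 3 without control16 library 2, 511 without gain4 library 2 and 1573 without control16 library 3. The median log2 fold change in gain4 was -0.17 over the members and -0.02 over all names. In regain Cebpd, Klf15, Ebf1 and Ebf2 were lower than in control16, 4 of 9 members, beside 21.7% of all names called, 12.5% higher and 9.23% lower. The median log2 fold change in regain was -0.53 over the members and -0.01 over all names. These 4 regain calls held when any 1 library of regain or control16 was left out, while the count over all names, 3864, was 2291 without regain library 3. Macrophage sums were 2318 to 4674 CPM in gain4 and 4880.1 to 9198 CPM in regain, against 1806 to 2316 CPM in control16, with 2 of 12 markers higher in gain4, and with 10 higher and 1 lower in regain. Of 10 adipocyte markers 0 changed in gain4 by edgeR and 4 fell in regain, with sums of 32846 to 46629.5 CPM in gain4 and 16174 to 25404 CPM in regain, against 33246 to 45108 CPM in control16. In regain 1 of 9 B cell markers (20.6 to 46.1 CPM in regain against 8.20 to 29.6 CPM in control16) and 1 of 9 thermogenic fat markers (28.8 to 57.0 CPM in regain against 20.0 to 27.7 CPM in control16) also rose. The part of such cells in these results was not tested.

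**Figure D2:**
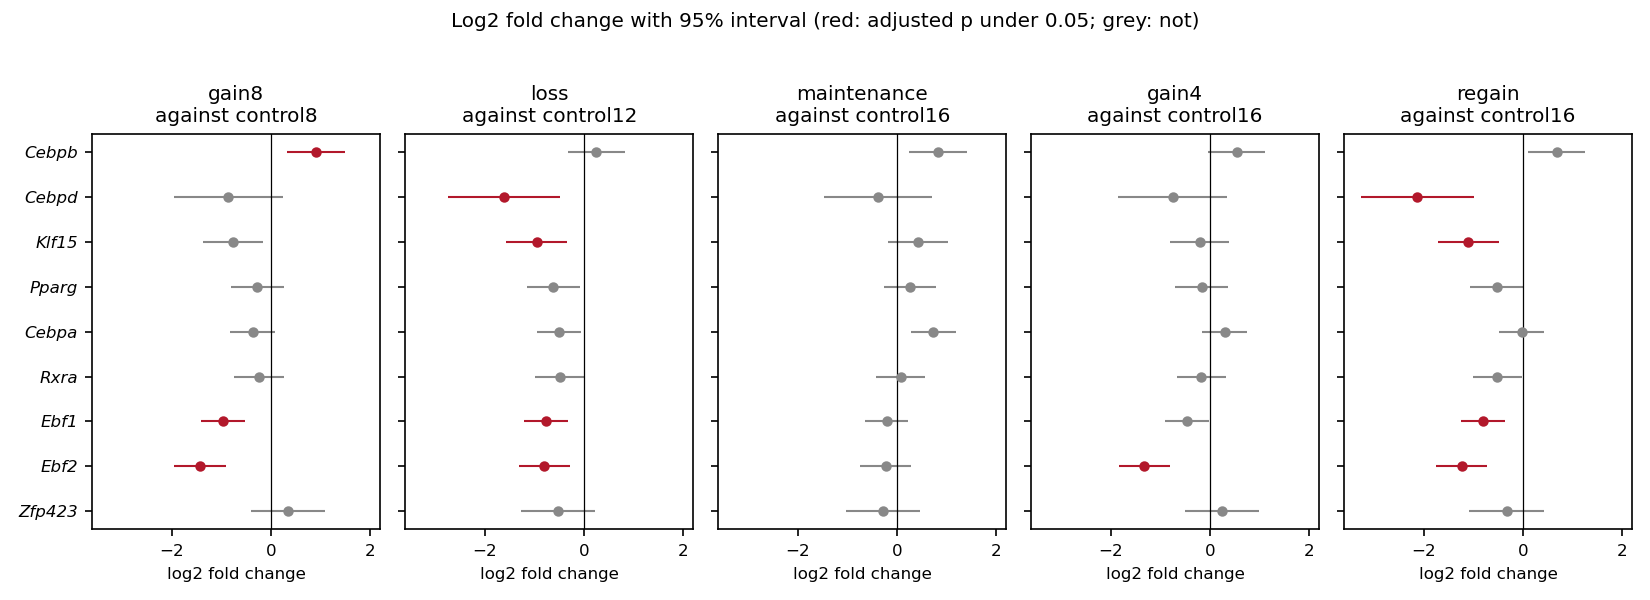
Log2 fold change (x axis) of each member in the 5 comparisons with age-matched controls, with the 95% interval; red points passed an adjusted p of 0.05 and grey points did not. Ebf2 passed in 4 panels, always lower, and Cebpb passed only in gain8, where it was higher; maintenance, gain4 and regain share their controls.

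Cebpb, an early factor, had 55.5, 65.0 and 67.2 CPM in gain8, against 28.7, 37.4 and 34.0 CPM in control8. All gain8 libraries lay above all control8 libraries, and the log2 fold change was 0.91 ± 0.28 (SE), adjusted p = 0.0248, 95% interval 0.32 to 1.49. The call ended when control8 library 1 (0.81, adjusted p = 0.0954), control8 library 3 (0.94, adjusted p = 0.0596), gain8 library 2 (0.88, adjusted p = 0.0723) or gain8 library 3 (0.85, adjusted p = 0.078) was left out. Within the Lars2 sets the difference in mean log2 CPM was 0.57 in the high set, with 1 library a group, and 1.08 in the low set, with 2 a group. In regain Cebpb had 48.6, 54.2 and 67.7 CPM, against 39.6, 33.8 and 33.0 CPM in control16. Those groups did not overlap either, but the log2 fold change of 0.68 ± 0.28 (SE), adjusted p = 0.0855, 95% interval 0.10 to 1.26, did not pass. It was called in a model of these groups alone (0.69, adjusted p = 0.0191) and without the 3 libraries of maintenance, loss and control12 that stood apart (0.68, adjusted p = 0.0444).

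The other Cebpb comparisons with controls rested on unequal libraries. Loss had 83.8, 56.4 and 41.2 CPM, against 55.5, 52.4 and 44.3 CPM in control12, and the groups overlapped (log2 fold change 0.25 ± 0.28 (SE), adjusted p = 0.547). Gain4 had 38.8, 74.9 and 40.7 CPM, against the control16 values above, with library 2 well above its fellows (log2 fold change 0.54 ± 0.28 (SE), adjusted p = 0.239). Maintenance had 67.9, 38.8 and 82.1 CPM, and its lowest library lay within the control16 range (log2 fold change 0.83 ± 0.28 (SE), adjusted p = 0.115). Without that library, number 2, the difference was called (1.08, adjusted p = 0.0157). The fitted Cebpb difference was above 0 in all 5 comparisons with age-matched controls, of which gain8 alone passed in the model of all groups, and in loss it was -0.06, adjusted p = 0.938 without loss library 1. In the GENCODE annotation of GRCm38, 312 of the 1504 exonic bases of Cebpb (chr2:167688915-167690418, plus strand) are shared with Tmem189 on the opposite strand, which had a median of 1852 reads. Because no source used here states whether counting used strand, reads of the shared bases cannot be assigned.

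Cebpd, the partner of Cebpb among the early factors, was lower in regain and in loss. Regain had 16.7, 21.2 and 17.6 CPM, against 112, 87.6 and 42.9 CPM in control16. Every regain library lay below every control16 library, and the log2 fold change was -2.13 ± 0.55 (SE), adjusted p = 0.0085, 95% interval -3.27 to -0.98. Within the Lars2 sets the difference in mean log2 CPM was -2.35 in the high set (2 libraries a group) and -1.35 in the low set (1 a group).

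Loss had 18.4, 32.3 and 21.0 CPM of Cebpd, against 67.3, 75.5 and 76.7 CPM in control12. The groups were fully apart, with a log2 fold change of -1.61 ± 0.54 (SE), adjusted p = 0.0393, 95% interval -2.74 to -0.49. That call held only without loss library 2 among the 6 fits that leave out 1 library; the fold changes of the 6 fits ran from -1.89 to -1.46. Gain8 had 49.2, 18.0 and 24.4 CPM, against 41.2, 49.8 and 75.3 CPM in control8, with 1 gain8 library inside the control range (log2 fold change -0.86 ± 0.53 (SE), adjusted p = 0.253). Gain4 had 31.5, 81.0 and 31.6 CPM, where library 2 lay among the control16 libraries (log2 fold change -0.75 ± 0.53 (SE), adjusted p = 0.397). Maintenance had 75.0, 99.96 and 11.4 CPM, and the low value belongs to library 3, the one with liver transcripts (log2 fold change -0.38 ± 0.53 (SE), adjusted p = 0.72). Without that library the log2 fold change in maintenance was 0.16, adjusted p = 0.892. In the GENCODE annotation, 562 of the 3746 exonic bases of Cebpd (chr16:15887286-15891031, plus strand) are shared with Spidr on the opposite strand, which had a median of 370 reads. The deposited exonic length of Cebpd is 1180 bases, so whether the shared bases were counted cannot be told.

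**Figure D3:**
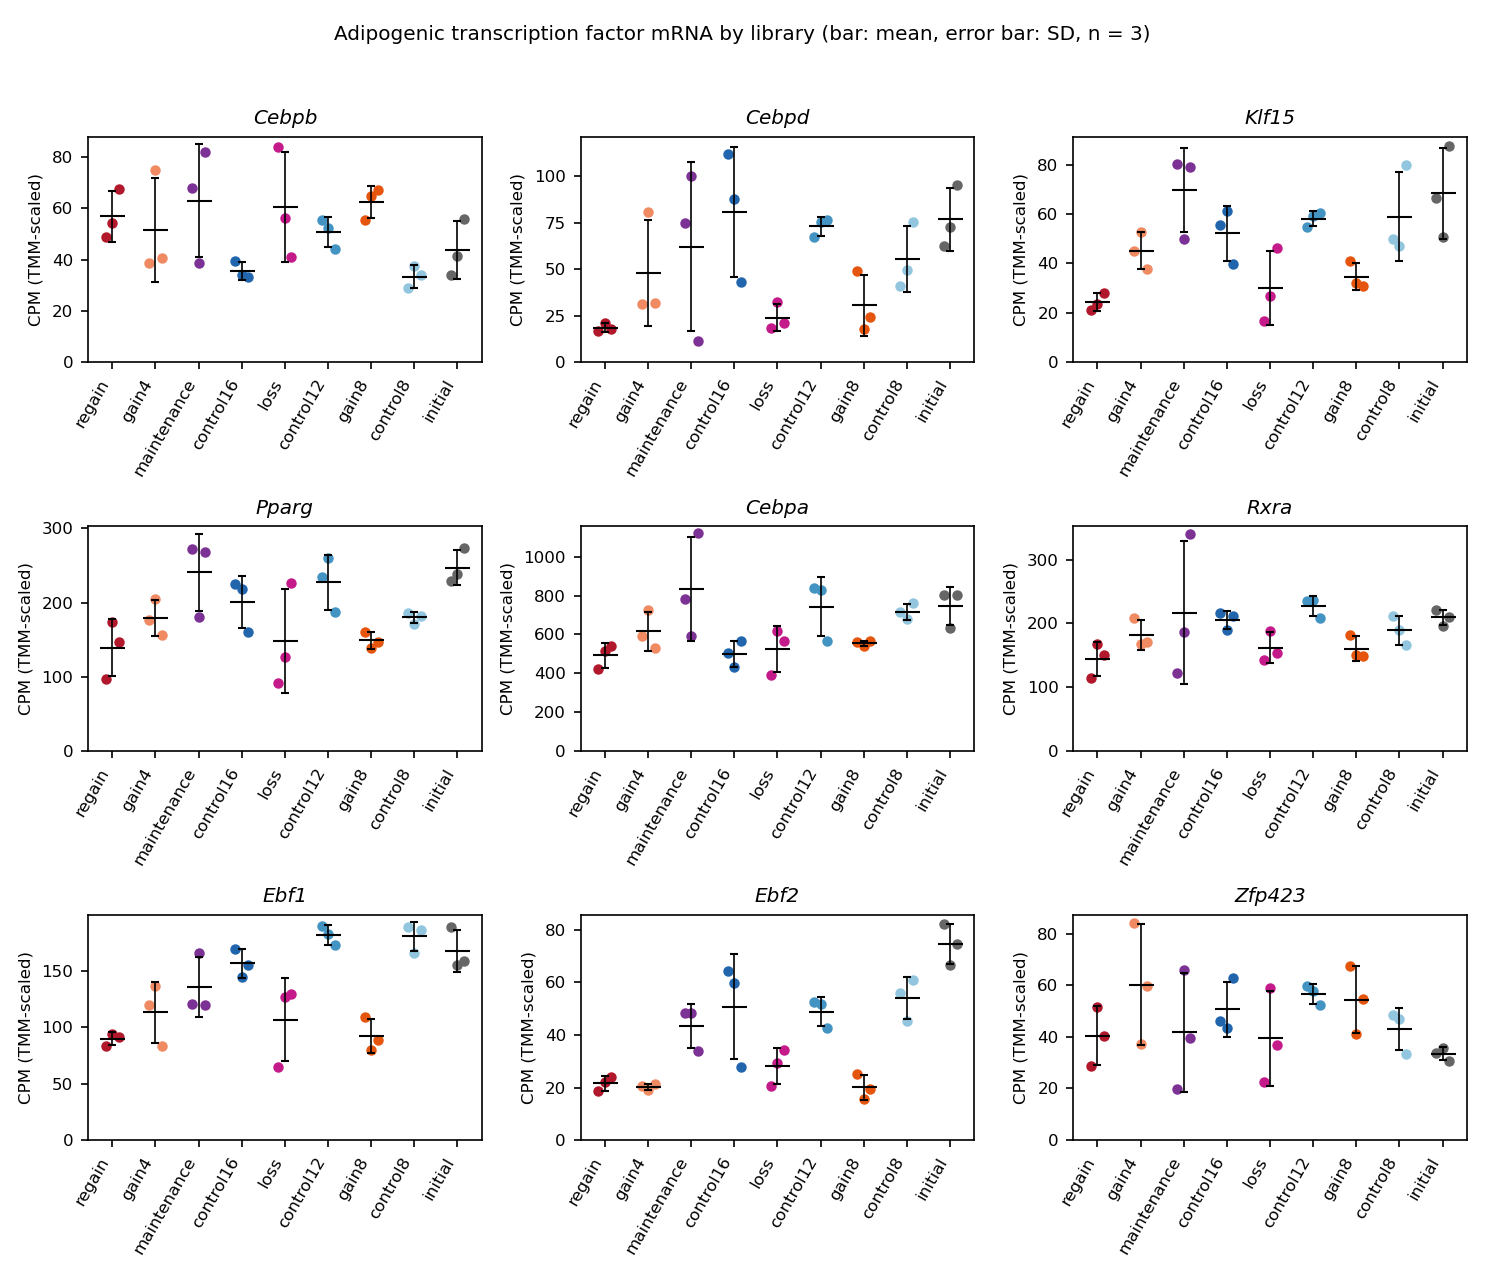
TMM-scaled CPM of each member in every library by group, with the mean (bar) and SD (error bar) of 3 libraries. Regain and loss lie low for Cebpd and Klf15, gain8, gain4, loss and regain lie low for Ebf2, and Cebpb lies higher in gain8 than in control8.

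Set against each other, the early and late pairs gave a balance that overlapped between groups in all 5 comparisons with age-matched controls. The mean log2 CPM of Cebpb and Cebpd minus that of Pparg and Cebpa was -2.78 ± 0.24 in gain8 and -3.09 ± 0.28 in control8 (SD, n = 3 each). It was -2.86 ± 0.68 in loss and -2.74 ± 0.22 in control12. It was -3.08 ± 0.94 in maintenance, -2.84 ± 0.47 in gain4, -3.00 ± 0.16 in regain and -2.61 ± 0.35 in control16. The difference from the age-matched control was 0.30 in gain8, -0.12 in loss, -0.47 in maintenance, -0.23 in gain4 and -0.39 in regain. No test was made on this score over chosen genes. CPM is not per length, so only the change of this score between groups can be read. In regain both pairs had means below control16, with an early mean of 5.01 ± 0.15 and a late mean of 8.01 ± 0.30 log2 CPM, against 5.69 ± 0.42 and 8.30 ± 0.09 in control16. The early mean averages opposite moves: Cebpb averaged 56.9 CPM in regain and 35.5 CPM in control16, and Cebpd 18.5 and 80.8 CPM. Of the late pair, Pparg averaged 139 and 201 CPM and Cebpa 492 and 502 CPM.

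The members of the early pair were also set against each other. The ratio of Cebpb to Cebpd in level per length was 0.884, 2.16 and 2.83 in the gain8 libraries, in rising order, against 0.355, 0.548 and 0.589 in control8. It was 1.37, 1.54 and 3.58 in loss, against 0.453, 0.545 and 0.648 in control12. It was 2.01, 2.28 and 3.02 in regain, 0.726, 0.967 and 1.01 in gain4 and 0.305, 0.711 and 5.63 in maintenance, against 0.278, 0.302 and 0.604 in control16. The ratio did not overlap with the controls in gain8, loss, gain4 and regain, and it overlapped in maintenance. With the deposited exonic lengths of 1504 bases for Cebpb and 1180 for Cebpd, Cebpb was below Cebpd in every control and initial library. In every loss and regain library Cebpb was above Cebpd. The GENCODE annotation gives Cebpd 3746 exonic bases, and a longer Cebpd would raise every ratio by the same factor. The side of 1 therefore depends on the length used, while the order of the libraries does not. This ratio was looked at after the opposite directions of the pair had been seen and carries no test.

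**Figure D4:**
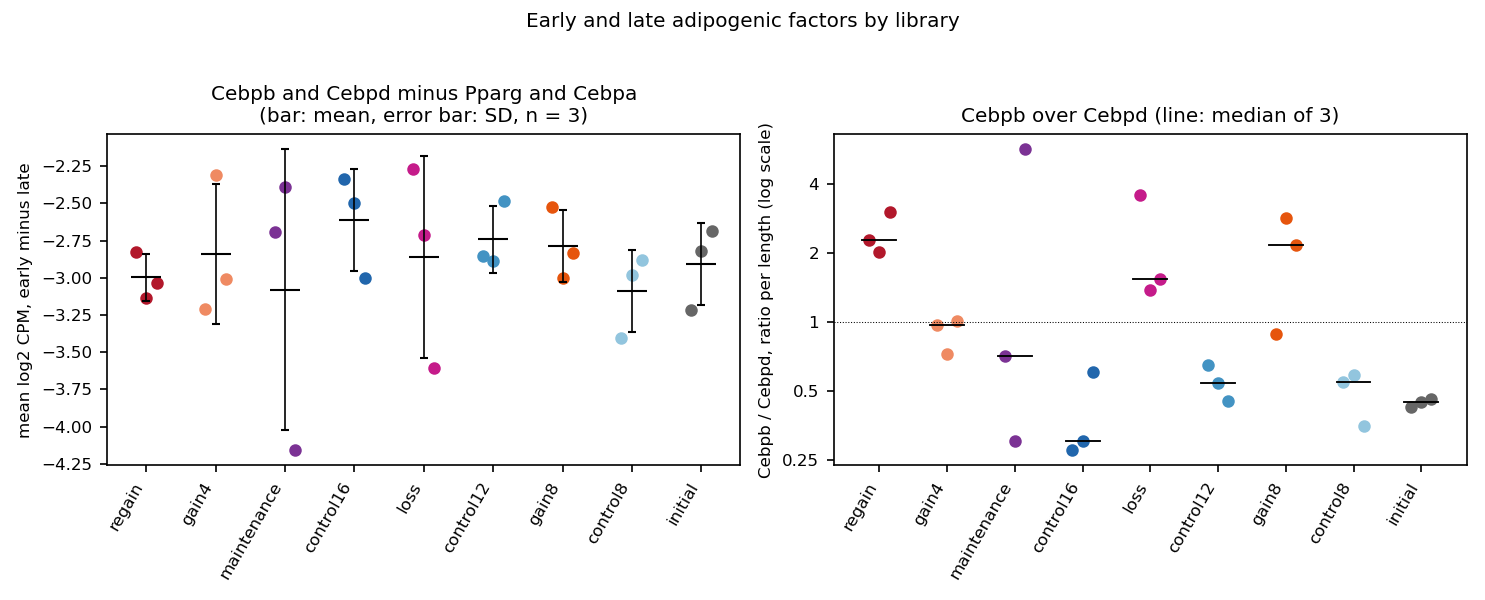
Left, mean log2 CPM of the early factors minus that of the late factors in each library, with the mean and SD of 3; right, the ratio of Cebpb to Cebpd in level per length on a log axis, with the median of 3 as a line. The left panel shows overlapping groups, and in the right panel all loss and regain libraries lie above 1 while all control libraries lie below it. The place of 1 rests on the deposited Cebpd length of 1180 bases.

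Pparg and Cebpa, the late factors, were called in no comparison with age-matched controls. Pparg had 161, 139 and 147 CPM in gain8, against 186, 172 and 182 CPM in control8. The groups did not overlap, but the log2 fold change was small (-0.27 ± 0.25 (SE), adjusted p = 0.466, 95% interval -0.80 to 0.26). Loss had 91.7, 127 and 227 CPM, against 234, 261 and 188 CPM in control12, spanning a wide range with the lowest value in library 1 (log2 fold change -0.61 ± 0.26 (SE), adjusted p = 0.091). Without loss library 3 that fall was called (-1.04, adjusted p = 0.00681), and without loss library 1 it was -0.36, adjusted p = 0.44. In regain Pparg had 97.5, 173 and 147 CPM, in gain4 177, 204 and 156 CPM and in maintenance 273, 181 and 268 CPM, against 225, 218 and 160.1 CPM in control16. All 3 groups overlapped with control16, with log2 fold changes of -0.53 ± 0.25 (SE), adjusted p = 0.144 in regain, -0.17 ± 0.25 (SE), adjusted p = 0.721 in gain4 and 0.26 ± 0.25 (SE), adjusted p = 0.594 in maintenance.

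Cebpa had 561, 541 and 565 CPM in gain8, against 713, 679 and 761 CPM in control8, groups that did not overlap (log2 fold change -0.37 ± 0.22 (SE), adjusted p = 0.228). In a model of these groups alone this fall was called (-0.38, adjusted p = 0.0248). Loss had 392, 617 and 567 CPM, against 837, 829 and 566 CPM in control12, and the ranges overlapped (log2 fold change -0.50 ± 0.22 (SE), adjusted p = 0.104). Maintenance had 781, 594 and 1122 CPM, all above the 506, 433 and 567 CPM of control16. The log2 fold change there was 0.73 ± 0.22 (SE), adjusted p = 0.0819, 95% interval 0.28 to 1.18, and it was 0.50, adjusted p = 0.339 without library 3, whose liver transcripts stand beside the highest Cebpa value. Without maintenance library 2, the lowest of the group, it was called (0.92, adjusted p = 0.00997). Gain4 and regain overlapped with control16, with 591, 726 and 533 CPM in gain4 and 421, 514 and 543 CPM in regain (log2 fold changes 0.30 ± 0.22 (SE), adjusted p = 0.413 and -0.03 ± 0.22 (SE), adjusted p = 0.945).

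Rxra, which encodes the partner that PPARG needs to bind DNA, was called by edgeR in none of the comparisons with all libraries in the model. Its levels were 183, 149.8 and 148 CPM in gain8, against 212, 189.5 and 167 CPM in control8. They were 143, 189 and 154 CPM in loss, all below the 236, 237 and 209 CPM of control12. They were 114, 168 and 151 CPM in regain, all below the 216, 189 and 212 CPM of control16, with a log2 fold change of -0.51 ± 0.24 (SE), adjusted p = 0.128, 95% interval -1.01 to -0.02. Without the 3 libraries that stood apart this fall was called (-0.51, adjusted p = 0.0254). The lower ends of the 95% intervals were -0.74 in gain8 and -0.99 in loss, so the intervals reached falls of that size. Maintenance was the most uneven group, with 122, 187 and 341 CPM, again highest in library 3. Against maintenance, regain was lower by a log2 fold change of -0.59 ± 0.24 (SE), adjusted p = 0.0725. That fall was called by DESeq2 (-0.62, adjusted p = 0.0371), without maintenance library 1 (-0.87, adjusted p = 0.00422) and without maintenance library 2 (-0.69, adjusted p = 0.0489).

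Klf15, a zinc-finger factor induced by glucocorticoids and fasting, was lowest in regain. It had 21.1, 23.7 and 28.1 CPM there, against 55.7, 61.2 and 39.7 CPM in control16. The groups were apart, and the log2 fold change was -1.10 ± 0.29 (SE), adjusted p = 0.0105, 95% interval -1.71 to -0.49. Within the Lars2 sets the difference was -1.18 in the high set and -0.91 in the low set of mean log2 CPM. Loss had 16.7, 26.9 and 46.3 CPM, against 54.9, 59.0 and 60.5 CPM in control12. The loss libraries were spread widely but all lay below control12, with a log2 fold change of -0.96 ± 0.29 (SE), adjusted p = 0.0259, 95% interval -1.56 to -0.35. The call ended without control12 library 2 or 3 or loss library 1 or 2, and the value without loss library 1 was -0.67, adjusted p = 0.186.

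In gain8 Klf15 had 41.0, 32.1 and 30.8 CPM, all below the 50.03, 46.8 and 79.6 CPM of control8, and missed the threshold (log2 fold change -0.76 ± 0.29 (SE), adjusted p = 0.0651). DESeq2 (-0.80, adjusted p = 0.0357) and a model with the Lars2 set as a term (-0.79, adjusted p = 0.0443) called it, as did a model of these groups alone (-0.78, adjusted p = 0.0348) and one without the 3 libraries (-0.76, adjusted p = 0.031). Gain4 had 45.2, 52.8 and 37.6 CPM and maintenance 80.2, 49.96 and 79.0 CPM, and both overlapped with control16 (log2 fold changes -0.21 ± 0.29 (SE), adjusted p = 0.692 and 0.42 ± 0.29 (SE), adjusted p = 0.433). Regain and maintenance are compared directly below.

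Ebf2 was the member called in most comparisons, 5 of the 9 between 2 groups, and always lower. It had 25.2, 15.6 and 19.4 CPM in gain8, against 55.9, 45.3 and 61.1 CPM in control8. The groups were far apart, with a log2 fold change of -1.43 ± 0.25 (SE), adjusted p = 0.000546, 95% interval -1.95 to -0.91, a fold of 0.371. Leaving out any of the 6 libraries kept the call, with log2 fold changes of -1.63 to -1.28, and the within-set differences were -0.85 in the high and -1.75 in the low Lars2 set. Gain4 had 20.4, 19.1 and 21.4 CPM, a narrow group below all of control16, which had 64.5, 59.9 and 27.8 CPM. The log2 fold change was -1.32 ± 0.25 (SE), adjusted p = 0.0106, 95% interval -1.84 to -0.80. The call ended without control16 library 1 (-1.08, adjusted p = 0.0901) or library 2 (-1.18, adjusted p = 0.0845).

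Regain had 18.5, 22.3 and 24.1 CPM of Ebf2, also below every control16 library (log2 fold change -1.23 ± 0.25 (SE), adjusted p = 0.00131, 95% interval -1.75 to -0.71). Loss had 20.6, 29.3 and 34.1 CPM, against 52.4, 51.7 and 42.6 CPM in control12. These groups did not overlap (log2 fold change -0.80 ± 0.25 (SE), adjusted p = 0.0261), and the call ended without control12 library 1 or 2 or loss library 1 (-0.63, adjusted p = 0.18). Maintenance had 48.2, 48.2 and 33.7 CPM, within the control16 range (log2 fold change -0.23 ± 0.24 (SE), adjusted p = 0.634). Library 3 of control16 was low, and without it the maintenance difference was -0.52, adjusted p = 0.17.

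Ebf1, which is found in both precursors and mature fat cells, was called lower in gain8, regain and loss. It had 109, 80.0 and 88.6 CPM in gain8, against 189, 166 and 186 CPM in control8. The groups did not overlap (log2 fold change -0.96 ± 0.21 (SE), adjusted p = 0.00317, 95% interval -1.41 to -0.52), and each of the 6 fits without 1 library kept the call. Regain had 83.6, 94.4 and 91.9 CPM, a tight group below the 169.9, 145 and 155 CPM of control16 (log2 fold change -0.80 ± 0.21 (SE), adjusted p = 0.0102, 95% interval -1.24 to -0.36). Loss had 64.4, 127 and 129 CPM, all below the 190.1, 183 and 173 CPM of control12. The log2 fold change was -0.77 ± 0.21 (SE), adjusted p = 0.0148, and without loss library 1 it was -0.51, adjusted p = 0.111. Gain4 had 120.2, 136 and 83.5 CPM, all below control16 but not called (log2 fold change -0.47 ± 0.21 (SE), adjusted p = 0.176), and maintenance had 121, 166 and 119.7 CPM, with 1 library inside the control16 range (log2 fold change -0.21 ± 0.21 (SE), adjusted p = 0.61).

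Zfp423, the commitment factor, was called in none of the comparisons. It had 67.3, 41.3 and 54.6 CPM in gain8, against 48.4, 46.9 and 33.5 CPM in control8, overlapping groups (log2 fold change 0.34 ± 0.36 (SE), adjusted p = 0.528, 95% interval -0.41 to 1.09). Loss had 22.4, 59.1 and 36.8 CPM, against 59.8, 57.9 and 52.3 CPM in control12, a range wider than the difference (log2 fold change -0.52 ± 0.36 (SE), adjusted p = 0.317). Gain4 had 84.0, 37.1 and 59.8 CPM, regain 28.9, 51.8 and 40.5 CPM and maintenance 20.0, 65.9 and 39.7 CPM, against 46.0, 43.3 and 62.7 CPM in control16. All 3 overlapped with control16, with log2 fold changes of 0.25 ± 0.36 (SE), adjusted p = 0.704 in gain4, -0.33 ± 0.36 (SE), adjusted p = 0.548 in regain and -0.28 ± 0.36 (SE), adjusted p = 0.703 in maintenance.

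Regain set directly against maintenance, mice of the same age that stayed on normal diet after the loss phase, gave the most calls. Pparg, Cebpa, Cebpd, Klf15, Ebf1 and Ebf2 were lower in regain, 6 of 9 members, beside 26.9% of all names called, 13.9% higher and 13.0% lower (4790 names, and 2945 without regain library 3). All 9 fitted differences were below 0, with a median of -0.76 over the members and -0.07 over all names. Klf15 fell by 1.52 ± 0.30 on the log2 scale (SE, adjusted p = 0.000878), with each regain library below each maintenance library. Ebf2 followed at -1.005 ± 0.25 (SE), adjusted p = 0.00525, and both calls held without any 1 library, though limma on log2(FPKM + 1) did not call Ebf2 (-0.70, adjusted p = 0.0513). Pparg gave -0.79 ± 0.26 (SE), adjusted p = 0.0269, and Cebpa -0.76 ± 0.22 (SE), adjusted p = 0.0139, with groups that did not overlap. The Pparg call ended without library 1 or 3 of maintenance or library 1 or 3 of regain, and the Cebpa call ended without maintenance library 3 or regain library 1. Cebpd gave -1.75 ± 0.54 (SE), adjusted p = 0.0212, but maintenance library 3 lay below all regain libraries, and the call ended without maintenance library 1 or 2 or regain library 1 or 3. Ebf1 was the weakest call, at -0.59 ± 0.21 (SE), adjusted p = 0.0427. It ended in 5 of the 6 fits without 1 library, all but that without maintenance library 3, and in 5 of the 9 other settings, with the adjusted p reaching 0.231. Within the high Lars2 set, where maintenance library 3 is the only one of its group, the Cebpd difference was 0.75, and in the low set it was -2.37. Without regain library 1 the count was 2 and without regain library 3 it was 3. Mesothelium markers, 2 of 7 lower in regain, and 10 of 12 macrophage markers, higher in regain, moved in this comparison too. Of 10 adipocyte markers 1 was higher and 7 were lower in regain. All 14 liver markers were lower in regain. In maintenance their sums were 35.5, 18.4 and 8439 CPM, the last in library 3, against 8.35 to 30.6 CPM in regain. Of 5 sperm markers 2 fell, and of 6 tested markers of epididymis and efferent duct 1 fell. Of 9 B cell markers 1 rose, and of 9 thermogenic fat markers 1 rose and 2 fell. The part of all these cells in the members' values was not tested.

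Against gain4, which had the same last 4 weeks of diet at the same age, regain had 0 members called with edgeR, beside 5.49% of all names, 4.12% higher and 1.36% lower. Those 978 names became 0 without gain4 library 1 or 2 or regain library 3, 611 without regain library 2 and 2386 without gain4 library 3. Klf15 was -0.89 ± 0.29 (SE), adjusted p = 0.0697, and Cebpd -1.37 ± 0.54 (SE), adjusted p = 0.119, both with groups that did not overlap and the only 2 members with an unadjusted p under 0.05. DESeq2 called Klf15 (-0.91, adjusted p = 0.0304), as did the fit without gain4 library 3 (-1.01, adjusted p = 0.0434). Without the 3 libraries that stood apart both Klf15 (-0.89, adjusted p = 0.0266) and Cebpd (-1.37, adjusted p = 0.0297) were called, and limma on FPKM called none of 8. Ebf2 differed little (0.09 ± 0.25 (SE), adjusted p = 0.858, 95% interval -0.42 to 0.60).

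Loss against gain8, which differ in age as well as diet, also had 0 members called by edgeR, DESeq2 or limma, 0 with an unadjusted p under 0.05, beside 0.0786% of all names called by edgeR, 0.0281% higher and 0.0505% lower (14 names). That count was 589 without loss library 2, 0 to 5 without any other library, and 246 by DESeq2. Ebf2 differed by 0.48 ± 0.25 (SE), adjusted p = 0.43, 95% interval -0.03 to 0.996, and Pparg by -0.0046 ± 0.25 (SE), adjusted p = 0.998, 95% interval -0.53 to 0.52. Control8 against initial, an age difference of 5 to 13 weeks with 8 weeks of normal diet, had 0 members called by edgeR, DESeq2 or limma, 0 with an unadjusted p under 0.05, beside 0.724% of all names called by edgeR, 0.359% higher and 0.365% lower (129 names). That count was 0 to 71 with 1 library left out, lowest without control8 library 1. All 3 initial libraries but only 1 control8 library were in the high Lars2 set, so age and set are partly mixed here. With the Lars2 term 83 names were called. Pparg had 186, 172 and 182 CPM in control8, all below the 229, 239 and 274 CPM of the initial group (log2 fold change -0.46 ± 0.25 (SE), adjusted p = 0.403), and a model of these groups alone called it (-0.45, adjusted p = 0.0334). Ebf2 had 55.9, 45.3 and 61.1 CPM in control8, all below the 82.2, 66.7 and 74.7 CPM of the initial group (log2 fold change -0.46 ± 0.24 (SE), adjusted p = 0.37).

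Whether an effect differed between phases was tested as a difference of differences. For loss against control12 minus gain8 against control8, and for regain against control16 minus gain8 against control8, edgeR called 0 members and 0.0% of all names, no member had an unadjusted p under 0.05, and neither DESeq2 nor limma called a member. So Cebpb, called in gain8 and not in regain, was not shown to differ between them (-0.23, 95% interval -1.04 to 0.59). For Cebpd, called in regain and not in gain8, the difference was -1.27 (95% interval -2.82 to 0.29).

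Genes around the members were followed in lists. Beside them, edgeR called 21.5% of all names in gain8 (12.0% higher, 9.52% lower) and 20.0% in loss (11.8% and 8.24%). In gain4 it called 5.82% (3.8% and 2.02%) and in regain 21.7% (12.5% and 9.23%), each against its control. Of 34 tested adipocyte genes with textbook PPARG or C/EBPA sites, 1 rose and 11 fell in regain, with a median log2 fold change of -0.44 against -0.01 over all names. Insr, the insulin receptor gene, averaged 81.4 ± 10.05 CPM in regain and 193 ± 27.3 CPM in control16 (SD, n = 3 each, log2 fold change -1.24 ± 0.18, adjusted p = 9.61e-05). Pck1, which supplies glycerol for triglyceride, averaged 427 ± 72.4 CPM in regain and 4679 ± 1219 CPM in control16 (SD, n = 3 each, log2 fold change -3.45 ± 0.63, adjusted p = 0.000514). Cfd, the gene of the adipokine adipsin, averaged 402 ± 70.3 CPM in regain and 5254 ± 1353 CPM in control16 (SD, n = 3 each, log2 fold change -3.71 ± 0.71, adjusted p = 0.000836). In loss 0 of the 34 rose and 9 fell (median -0.75), in gain8 2 rose and 6 fell (median -0.16), and in gain4 0 rose and 1 fell (median 0.06). Cyp2e1, a cytochrome P450, averaged 211 ± 145 CPM in gain8 and 3983 ± 1203 CPM in control8 (SD, n = 3 each, log2 fold change -4.24 ± 0.82, adjusted p = 0.00118). In regain against gain4 only Retn, the resistin gene, was called, lower. All adipocyte markers summed above are also on this list, so its counts and theirs are not separate. The part of adipocyte share in these values was not tested.

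Of 19 cytokine and acute-phase genes linked to C/EBPB and C/EBPD, 8 rose and 1 fell in gain8, with a median log2 fold change of 1.44. Ccl2, a monocyte chemokine, averaged 32.7 ± 12.9 CPM in gain8 and 4.69 ± 1.01 CPM in control8 (SD, n = 3 each, log2 fold change 2.80 ± 0.51, adjusted p = 0.000716). Saa3, an acute-phase protein gene, averaged 237 ± 95.8 CPM in gain8 and 5.69 ± 5.72 CPM in control8 (SD, n = 3 each, log2 fold change 5.38 ± 1.05, adjusted p = 0.00129). Mmp12, a protease of macrophages, averaged 422 ± 28.9 CPM in gain8 and 17.1 ± 4.57 CPM in control8 (SD, n = 3 each, log2 fold change 4.62 ± 0.91, adjusted p = 0.00135). The list had 6 higher and 1 lower in loss, 4 higher and 0 lower in gain4, and 7 higher and 0 lower in regain (medians 1.03, 1.19 and 1.42). Macrophages express several of these genes, and the macrophage sums above rose beside them, and which cells made these transcripts was not tested.

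Of 18 glucocorticoid-induced genes, 10 fell and 0 rose in regain (median -1.29). Cebpd and Klf15 were called lower both in regain and in loss, each against its control, and a link to this list was not tested. Per1, a clock gene, averaged 37.0 ± 9.34 CPM in regain and 108 ± 14.9 CPM in control16 (SD, n = 3 each, log2 fold change -1.54 ± 0.30, adjusted p = 0.00092). Map3k6, a stress kinase gene, averaged 32.8 ± 10.1 CPM in regain and 99.7 ± 7.41 CPM in control16 (SD, n = 3 each, log2 fold change -1.60 ± 0.32, adjusted p = 0.00115). In loss 8 fell and 0 rose (median -1.02), with Fkbp5, a chaperone of steroid receptors, at 36.2 ± 2.95 CPM in loss and 199 ± 50.1 CPM in control12 (SD, n = 3 each, log2 fold change -2.46 ± 0.42, adjusted p = 0.000343). In gain8 1 rose and 1 fell, and in gain4 0 rose and 1 fell (medians -0.29 and -0.74). The single gene lower in gain4 was Klf9, which is also on the list of adipogenic partners. Pdk4 is also among the genes with PPARG or C/EBPA sites, and Lcn2 among the acute-phase genes.

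Of 35 adipogenic partners, 1 rose and 5 fell in gain8, 1 and 4 in loss, 1 and 3 in gain4, and 1 and 4 in regain, with median log2 fold changes of -0.25, -0.19, -0.27 and -0.10 in that order. The gene that rose was Egr2, an early zinc-finger factor that is also made by macrophages, at 21.7 ± 1.83 CPM in gain8 and 2.49 ± 0.873 CPM in control8 (SD, n = 3 each, log2 fold change 3.12 ± 0.43, adjusted p = 0.000134). Ppargc1a, a coactivator of PPARG, averaged 2.26 ± 0.120 CPM in gain8 and 9.62 ± 1.31 CPM in control8 (SD, n = 3 each, log2 fold change -2.09 ± 0.31, adjusted p = 0.000211). Med14, a Mediator subunit that PPARG recruits, averaged 27.9 ± 3.16 CPM in gain8 and 50.8 ± 2.65 CPM in control8 (SD, n = 3 each, log2 fold change -0.86 ± 0.17, adjusted p = 0.00139). Of 35 anti-adipogenic factors, 2 rose and 3 fell in gain8, 2 and 6 in loss, 1 and 1 in gain4, and 1 and 3 in regain (medians -0.44, -0.24, -0.24 and -0.40). The 1 anti-adipogenic factor that rose in regain, beside 3 that fell, was Ddit3, the C/EBP family member that blocks the others. It averaged 28.0 ± 5.06 CPM in regain and 15.7 ± 4.11 CPM in control16 (SD, n = 3 each, log2 fold change 0.83 ± 0.25, adjusted p = 0.0218). Of 20 progenitor markers, 0 rose and 4 fell in gain8, 1 and 2 in loss, 1 and 0 in gain4, and 1 and 1 in regain (medians -0.36, -0.09, -0.40 and -0.22). The 1 progenitor marker that rose in regain was Lum, a matrix gene of stromal cells, against a median below 0 for the list. It averaged 301 ± 178 CPM in regain and 68.5 ± 22.6 CPM in control16 (SD, n = 3 each, log2 fold change 2.14 ± 0.39, adjusted p = 0.000581). The medians over all names lay between -0.04 and -0.01 in these 4 comparisons. The shares of all names called there were 21.5% in gain8, 20.0% in loss, 5.82% in gain4 and 21.7% in regain. In maintenance against control16 edgeR called 0 of all tested names, so no gene of these 6 lists could be among the calls there.

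Across the 27 libraries the members fell into those that went together and those that did not, given here as Pearson r of log2 CPM, a description over libraries that share groups and depth. Ebf1 and Ebf2 had r = 0.83, Pparg and Klf15 0.88, Pparg and Cebpa 0.71, and Cebpd and Ebf1 0.75. Cebpb and Cebpd, the early pair, had r = -0.42, and Cebpb and Ebf1 -0.59. Among 10913 names with a mean of at least 5 CPM, the 3 most alike to Pparg were Klf15 (0.88), Fitm2 (0.88) and Mtus1 (0.88). The 3 most alike to Cebpa were Pgm2 (0.91), Gys1 (0.87) and Tmem143 (0.86). For Cebpb they were Mrto4 (0.85), Bop1 (0.83) and Nfkbib (0.82), and for Cebpd Mycl (0.92), Rbp7 (0.89) and Txnip (0.89).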

How the data were processed

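Total RNA of 60-70 mg tissue was made into libraries with a TruSeq kit, per the labels' protocols. Trimmomatic 0.33, TopHat2 2.0.13 and HTSeq 0.6.0 and the build mm10/GRCm38 are named in the submitters' processing notes; the annotation and strand setting are not given in the sources used here. The authors deposited raw read counts per gene (43616 rows, of which 156 repeat a name with identical values and were used once) and FPKM for 22083 names, in which Cebpd does not appear. The exonic length deposited by the authors beside each gene was used with the counts to compute levels per length, a relation that matched 99.87% of the deposited FPKM within a fraction of 0.001.

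Names were kept by edgeR's filterByExpr (minimum count 10, minimum total 15), leaving 17821, and all 9 members passed. All 27 libraries entered 1 model with a mean per group (edgeR 4.0.16, R 4.3.3, TMM, quasi-likelihood test), adjusted by Benjamini-Hochberg within each of 9 comparisons and 2 differences of differences. The SE is the fold change over the root of its F statistic. Whether compared groups overlapped was described without a test, and how many of all names were so separated was not counted. Log2 CPM of single libraries used a prior count of 2. Alternatives were DESeq2 1.42.0, RLE scaling, dropping the filter, fitting the compared groups only, replicate number as a block, the Lars2 set as a term, 3 libraries left out together (maintenance 3, loss 1, control12 3), limma 3.58.1 on log2(FPKM + 1) and log2(FPKM + 0.1), and each library left out in turn. In every fit the spread was pooled over all groups in the model, also where 2 libraries were left in a group. Like-numbered replicates correlated from -0.18 to 0.38, in 0 of 9 comparisons all above 0.1, so they were not treated as pairs. EdgeR, DESeq2 and limma, there on CPM in place of FPKM, were also run on simulated counts for gain8 against control8 alone. These counts were drawn from edgeR's fitted spread and held no libraries that stood apart, so they cannot show how the fits treat such libraries.

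The members and lists were chosen with earlier results of these data known. The text names all members, some of the up to 3 called genes of smallest adjusted p per list and comparison, and the 3 most alike names for Pparg, Cebpa, Cebpb and Cebpd. The within-set differences and the Cebpb to Cebpd ratio were added after seeing the data.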

Additional observations from a re-analysis of the deposited data

How the results depend on the processing

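The 3 libraries a group limit every value, and counting error is small beside the spread between libraries. Over members and settings with a test, 1446 results kept their direction and their side of the threshold, 55 lost a call, 20 gained one and 50 changed sign without passing in either fit. Of the untested within-set differences, 95 moved by less than 1 SD (8 of them across 0), 57 by more (12 across 0) and 1 called value changed sign. RLE scaling changed no member's call.

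The count of members called was 3 in gain8 against control8 and 5 in a model of the compared groups only. In loss against control12 it was 4, with 1 in the compared groups only, 0 without the 3 libraries, 2 with limma on log2(FPKM + 1) and 2 on log2(FPKM + 0.1), and 0 to 4 with 1 library left out (0 without loss library 1, 1 without control12 library 2, 2 without control12 library 1 or 3). In maintenance against control16 it was 0, with 1 by DESeq2 and 0 to 2 with 1 left out (2 without maintenance library 2). In gain4 against control16 it was 1, with 0 in the compared groups only and 0 to 1 with 1 left out (0 without control16 library 1 or 2). In regain against control16 it was 4 without any 1 library, 5 in the compared groups only, 6 without the 3 libraries and 3 with limma on either scale. In regain against gain4 it was 0, with 1 by DESeq2, 2 without the 3 libraries and 0 to 1 with 1 left out (1 without gain4 library 3). In regain against maintenance it was 6, with 2 in the compared groups only, 2 and 3 with limma on log2(FPKM + 1) and log2(FPKM + 0.1), and 2 to 5 with 1 left out. In control8 against initial it was 0, with 1 (Pparg) in the compared groups only. Cebpd in regain against maintenance turned to 0.75 within the high Lars2 set, which holds 1 maintenance library. Fewer libraries enter the left-out and compared-groups fits; otherwise the cause was not tested.

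With 1 library left out, the early minus late difference ran from 0.15 to 0.41 in gain8, -0.42 to 0.25 in loss, -0.81 to 0.07 in maintenance, -0.50 to -0.04 in gain4 and -0.58 to -0.25 in regain, each against its control; loss without library 3 or control12 library 3 and maintenance without library 3 changed its sign. With the deposited exonic lengths, the order of levels per length was the same by mean and by median and on log2(FPKM + 1). The order with other lengths was not computed.

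Replicate number as a block changed 1 member's call, Ebf1 in regain against maintenance (-0.59, adjusted p = 0.0559), and gave no other change among members.

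Sign changes among results that passed in neither fit, as log2 fold changes with the value in all libraries first, were as follows. In loss against control12, Cebpb was 0.25 (-0.060 to 0.47 with 1 left out, -0.15 without the 3 libraries). In maintenance against control16, Cebpd was -0.38 (-0.87 to 0.16 with 1 left out, 0.11 without the 3 libraries), Rxra was 0.075 (-0.38 to 0.33 with 1 left out, -0.41 without the 3 libraries, -0.14 with limma at + 1, -0.15 with limma at + 0.1) and Zfp423 was -0.28 (-0.78 to 0.043 with 1 left out). In gain4 against control16, Zfp423 was 0.25 (-0.036 to 0.51 with 1 left out). In regain against control16, Cebpa was -0.027 (-0.12 to 0.074 with 1 left out, 0.011 with limma at + 1, 0.011 with limma at + 0.1). In regain against gain4, Cebpb was 0.14 (-0.065 to 0.49 with 1 left out). In regain against maintenance, Zfp423 was -0.051 (-0.39 to 0.43 with 1 left out, 0.023 with the Lars2 term, 0.16 with limma at + 1, 0.20 with limma at + 0.1) and Cebpb was -0.15 (-0.42 to 0.047 with 1 left out, 0.092 without the 3 libraries, 0.039 with limma at + 1, 0.041 with limma at + 0.1). In loss against gain8, Rxra was 0.014 (-0.11 to 0.12 with 1 left out, -0.0050 without the filter, -0.023 with the Lars2 term), Pparg was -0.0046 (-0.45 to 0.25 with 1 left out, 0.25 without the 3 libraries), Cebpa was -0.081 (-0.21 to 0.089 with 1 left out, 0.092 without the 3 libraries), Klf15 was -0.21 (-0.67 to 0.076 with 1 left out, 0.080 without the 3 libraries), Cebpd was -0.35 (-0.63 to 0.17 with 1 left out) and Cebpb was -0.049 (-0.36 to 0.15 with 1 left out). In control8 against initial, Cebpa was -0.055 (-0.16 to 0.0031 with 1 left out, 0.012 with limma at + 1, 0.012 with limma at + 0.1) and Klf15 was -0.21 (-0.51 to 0.0045 with 1 left out). In the difference of loss against control12 and gain8 against control8, Klf15 was -0.19 (-0.65 to 0.093 with 1 left out, 0.13 without the 3 libraries) and Cebpa was -0.13 (-0.30 to 0.035 with 1 left out). In the difference of regain against control16 and gain8 against control8, Ebf2 was 0.20 (-0.12 to 0.40 with 1 left out).

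The counts over all names are given with each setting that moved them by over 1.5 times. They were 3833 in gain8 against control8 (5976 in the compared groups only, 2137 to 3345 with 1 left out) and 3564 in loss against control12 (1490 without the 3 libraries, 769 in the compared groups only, 1196 to 4461 with 1 left out). They were 0 in maintenance against control16 (830 by DESeq2, 149 with RLE, 217 without the filter, 0 to 2251 with 1 left out) and 1037 in gain4 against control16 (2583 without the 3 libraries, 2105 by DESeq2, 0 in the compared groups only, 503 with limma at + 0.1, 444 with limma at + 1, 641 without the filter, 2 to 1573 with 1 left out). Other counts were 3864 in regain against control16 (2291 to 3209 with 1 left out) and 978 in regain against gain4 (2939 without the 3 libraries, 2120 by DESeq2, 0 in the compared groups only, 239 without the filter, 606 with the block, 0 to 2386 with 1 left out), then 4790 in regain against maintenance (1444 in the compared groups only, 2945 to 4993 with 1 left out) and 14 in loss against gain8 (2 without the 3 libraries, 246 by DESeq2, 27 with the Lars2 term, 0 in the compared groups only, 7 with the block, 0 to 589 with 1 left out), and 129 in control8 against initial (1076 without the 3 libraries, 679 by DESeq2, 83 with the Lars2 term, 1930 in the compared groups only, 78 without the filter, 0 to 71 with 1 left out).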
